A study of Mus musculus with 8 samples.

Results

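The interferon-inducible p200 family, also called the PYHIN family, was described in bulk RNA sequencing of mouse liver. Its 7 members here were the rows of the deposited gene table named Ifi202b, Ifi203, Ifi204, Ifi205, Mnda, Aim2 and Pyhin1, out of 19348 genes in all. The groups were 5 libraries from livers of 5-week-old Stab1 knockout mice and 3 libraries from livers of wild-type mice of the same age. The product of Stab1, stabilin-1, is an endocytic receptor found on sinusoidal endothelial cells and on some macrophages. The labels do not give the strain, the sex, the way the knockout was made, or whether each library came from a separate animal, so the spread between libraries may be technical in part. The family was chosen by the read counts of this same comparison, in which Ifi202b stood out, and the values of its members are therefore given as a description. Calls of the fit across all genes are counted for them beside the share over all genes, and at the end under other settings.

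Proteins of the p200 family bind DNA through a carboxy-terminal HIN-200 domain, and most also carry an amino-terminal pyrin domain that pairs with other pyrin domains. In the mouse their genes form a cluster on chromosome 1, and many are induced by interferons in macrophages and other immune cells. AIM2 senses double-stranded DNA in the cytosol and assembles an inflammasome through the adaptor ASC and caspase-1. p202, the product of Ifi202b, lacks the pyrin domain and is known as an antagonist of AIM2. Expression of Ifi202 is known to differ widely between inbred mouse strains.

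The RefSeq gene table names some of these rows differently. By gene identifier, the row called Mnda (identifier 381308) is Ifi211 there, and the row called Pyhin1 (identifier 236312) is Ifi209. Along chromosome 1 the members lie in the order Aim2, Pyhin1, Ifi204, Mnda, Ifi203, Ifi202b and Ifi205. A further 5 rows of the deposited table belong to the same cluster, namely BC094916, Pydc4, Pydc3, AI607873 and Mndal, which RefSeq calls Ifi214, Ifi213, Ifi208, Ifi207 and Mndal. The RefSeq span of Aim2 overlaps that of its neighbour Cadm3. The strandedness of the counting is not given in the sources used here, so reads in a stretch shared by both genes cannot be told apart.

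The sequences in front of the genes are shown because many interferon-induced genes carry an element there through which interferons act. This interferon-stimulated response element (ISRE) was searched as GAAA, any 2 bases and GAAA on both strands in RefSeq promoters of GRCm38.p6, each running from 250 bases before to 50 bases after an annotated start. It was found in 3.44% of all 32851 promoters of this length, and in at least 1 promoter of 3.99% of all genes with such promoters. Of a list of interferon-stimulated genes, 19 of 33 held it in at least 1 promoter. Promoters were available for 6 members. The motif stood in at least 1 promoter of Mnda, Ifi203 and Ifi205, and in none of the windows of Ifi202b, Aim2 and Pyhin1. BC094916 and Pydc4, also of the cluster, held it 79 and 73 bases before their starts and are not printed. In the lines below, capitals mark the motif in 3 members and in 3 further genes of the cluster, written 5′ to 3′ on the strand of the gene.
Mnda, chr1:173913066-173913091, minus strand: aagccaggGAAATTGAAAgctatgaa
Ifi203, chr1:173942510-173942535, minus strand: gagctgggGAAATCGAAAgctatgaa
Ifi205, chr1:174031872-174031897, minus strand: aggccaggGAAATTGAAAgctatgaa
Mndal, chr1:173880206-173880231, minus strand: gagctgggGAAATCGAAAgctatgaa
AI607873, chr1:173741833-173741858, minus strand: tagccaggGAAATCGAAAattaagaa
Pydc3, chr1:173673599-173673624, plus strand: tctctgagGAAATCGAAAgctatgaa

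The element began 37 bases before the start of Mnda, 35 bases before a start of Ifi203 and 134 bases before that of Ifi205. Ifi205 held a second match, on the opposite strand, after its start. The Ifi202b promoter is printed whole because this gene carries the main difference below. Its capitals mark the only match to TTCNNNGAA, the gamma-interferon-activated site (GAS), which reads the same on both strands and is held by 8.30% of all promoters of this length.
Ifi202b, chr1:173982795-173983094, minus strand: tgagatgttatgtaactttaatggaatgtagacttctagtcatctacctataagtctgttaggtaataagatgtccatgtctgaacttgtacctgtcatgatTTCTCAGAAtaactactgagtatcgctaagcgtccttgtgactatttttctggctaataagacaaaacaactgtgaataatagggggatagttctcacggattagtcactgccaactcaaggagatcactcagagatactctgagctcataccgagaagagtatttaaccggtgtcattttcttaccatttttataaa
A match is a description of these letters and not a binding site, and a window without one says only that these letters are not in it.

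Before the members, the libraries were compared. Counted reads numbered 4.85 to 10.5 M per knockout library, against 10.1 to 10.8 M per wild-type library, and knockout library 1 was the shallowest. Stab1 fell in every knockout library, with 1.22 ± 0.378 CPM in knockout liver (SD, n = 5) against 51.0 ± 4.52 CPM in wild-type liver (SD, n = 3), where CPM is counts per 1 M reads of the scaled library. Knockout library 1 also stood apart in sex-linked reads, with 3 Xist reads against 4445 to 8222 elsewhere, and 320 reads of Ddx3y, a gene of the Y chromosome, against 0 to 4 elsewhere. Summed levels of hepatocyte markers were 71766 to 132778 CPM in knockout and 147708 to 155630 CPM in wild-type libraries, and all 8 of these markers had reads. In bulk tissue, fewer cells of a type and less RNA per cell cannot be told apart.

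Ifi202b was present in every knockout library and had no read in any wild-type library. Knockout libraries 1 to 5 held 36, 115, 34, 120 and 45 reads of Ifi202b (identifier 26388), against 0 reads in each of the 3 wild-type libraries. On the CPM scale its level was 7.04, 12.8, 3.21, 12.7 and 5.19 in knockout libraries 1 to 5. The groups did not overlap, and the knockout libraries fell into a high pair, libraries 2 and 4, and 3 lower ones, with a 4.0-fold range among them. A count of 0 allows up to 3 reads, which is 0.276 to 0.301 CPM in a single wild-type library and 0.0955 CPM over the wild-type group. Against that group floor the knockout mean of 8.19 ± 4.39 CPM (SD, n = 5) was at least 85.8-fold higher, and at least 88.8-fold higher without knockout library 1. Even the lowest knockout library lay at least 33.6-fold above the floor. Floors cover counting error only.

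**Figure D1:**
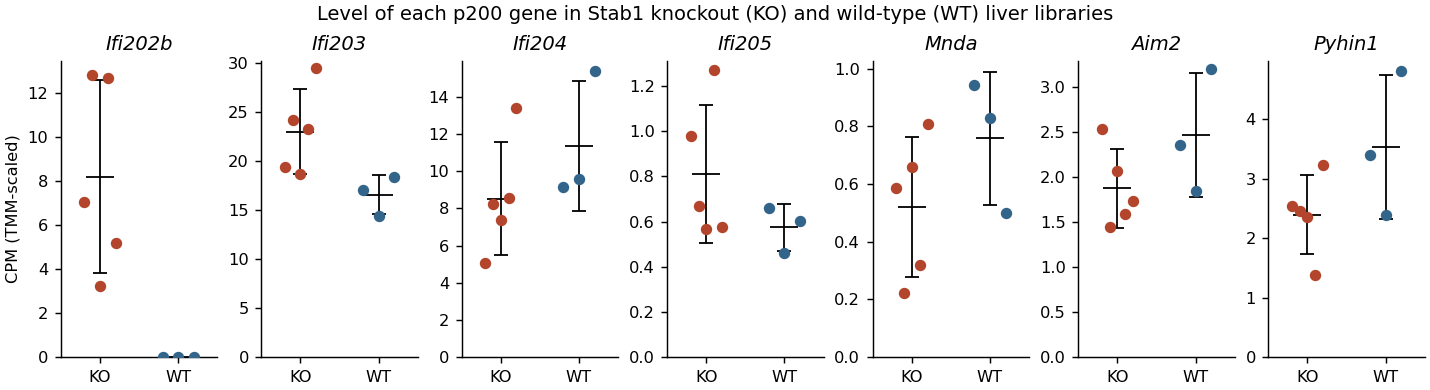
Level of each of the 7 p200 genes in CPM (vertical axis, from 0, on its own scale in each panel) in knockout (KO, left) and wild-type (WT, right) libraries. Points are libraries and bars are mean ± SD. Ifi202b runs from 3.21 to 12.8 CPM in knockout and is at 0 in wild-type libraries, Ifi203 does not overlap between groups, and the other 5 overlap.

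Ifi203, the neighbour of Ifi202b on the chromosome, was the other member whose groups did not overlap. Its level was 19.4, 24.2, 18.7, 23.3 and 29.4 CPM in knockout libraries 1 to 5, against 17.0, 14.4 and 18.3 CPM in wild-type libraries 1 to 3. The gap between groups was narrow, since the lowest knockout library lay at 18.7 and the highest wild-type library at 18.3 CPM. The log2 fold change was 0.47 (SE 0.18), and 0.52 without knockout library 1. Ifi203 had 989 reads in all knockout and 519 in all wild-type libraries, the most of any member in both groups.

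Ifi204 encodes p204, which binds DNA and is known in the mouse for roles in DNA sensing and in cell differentiation. Its level was 5.09, 8.25, 7.35, 8.58 and 13.4 CPM in knockout libraries 1 to 5, against 9.16, 9.58 and 15.4 CPM in wild-type libraries 1 to 3. The groups overlapped through knockout library 5, and the 4 other knockout libraries lay below all wild-type libraries. The log2 fold change was -0.40 (SE 0.29), and -0.29 without knockout library 1. It was -0.62 without knockout library 5 and -0.12 without wild-type library 3, the ends of its range over fits with 1 library left out.

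Aim2, the DNA sensor of the inflammasome, was low in both groups. Its level was 2.54, 1.45, 2.07, 1.59 and 1.73 CPM in knockout libraries 1 to 5, against 2.36, 1.84 and 3.21 CPM in wild-type libraries 1 to 3, and the groups overlapped. The log2 fold change was -0.41 (SE 0.28), and -0.52 without knockout library 1. Pyhin1, a relative of human IFIX, was at 2.54, 2.45, 2.36, 1.38 and 3.23 CPM in knockout libraries 1 to 5, against 3.40, 2.40 and 4.81 CPM in wild-type libraries 1 to 3. The groups overlapped, with a log2 fold change of -0.57 (SE 0.31), and -0.59 without knockout library 1.

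Mnda and Ifi205 were close to the limit of detection in all libraries. Mnda held 2 to 7 reads per knockout library and 5 to 10 reads per wild-type library. Ifi205, which encodes p205, held 5 to 12 reads per knockout library, against 5 to 7 per wild-type library. A floor of 3 reads is 0.587 CPM in knockout library 1 and 0.276 to 0.346 CPM in the others, so at this depth no difference could be read from these genes. Both were removed by the filter on low counts. Fitted without that filter, the log2 fold change was -0.56 (SE 0.48) for Mnda and 0.46 (SE 0.44) for Ifi205.

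Of the 7 members, 5 passed the filter on low counts. In the edgeR quasi-likelihood fit across 12338 genes, 1 of the 5, Ifi202b, passed an adjusted p of 0.05 as higher in knockout liver, where 0.0729% of all tested genes did, and 0 as lower, where 0.154% of all did (0.227% in either direction). Without knockout library 1 the same 1 member was called, where 0.928% of all tested genes were. Ifi202b lost this call without knockout library 2, and likewise when library 1 or library 2 of the wild type was left out. At an unadjusted p below 0.05 the count was 2 of 5, against 13.6% of all tested genes, and DESeq2 called 1 member higher and 0 lower, against 1.03% of the genes it tested. Ifi202b passed the filter only through its knockout libraries. By CPM, 2 of the 5 had knockout libraries all above the wild-type ones, against 3.04% of all tested genes, and 0 had them all below, against 3.61% (6.65% in either direction). Since the family was chosen with this comparison known, nothing is read from these counts.

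Ranked per length by the deposited RPKM (reads per kilobase and 1 M reads), Ifi202b took rank 2 of the 7 members in knockout liver and rank 7 in wild-type liver. In knockout liver Ifi203 came first with 6.31 ± 1.02 RPKM, followed by Ifi202b with 4.55 ± 2.39 and Ifi204 with 3.68 ± 1.21 (SD, n = 5), and neighbours among these 3 lay within their spread. Aim2 (0.744 ± 0.200 RPKM) lay more than 1 SD below Ifi204 in knockout liver, and Pyhin1 (0.684), Ifi205 (0.507) and Mnda (0.315) came next, each within 1 SD of its neighbour. In wild-type liver Ifi204 (4.91 ± 1.47 RPKM) and Ifi203 (4.53 ± 0.506) led within their spread (SD, n = 3). Pyhin1 (1.003) and Aim2 (0.965) followed within their spread in wild-type liver, then Mnda (0.457) and Ifi205 (0.354), and Ifi202b was last, listed at 0. RPKM divides uniquely mapped reads by the full length, so stretches shared with other genes can lower it. Their share, given below, ran from 0 for Ifi202b to 30.8% for Ifi204 and 73.3% for Mnda. These ranks are therefore no order of expression between members.

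Summed over the 7 members, the family reached 34.9 to 54.4 CPM in knockout and 29.5 to 42.9 CPM in wild-type libraries, and the groups overlapped. Without Ifi202b the sum was 37.1 ± 7.27 CPM in knockout (SD, n = 5) and 35.3 ± 6.87 CPM in wild-type liver (SD, n = 3). Ifi202b made up 9.19% to 25.9% of the sum in the knockout libraries. Reads that map to several of these genes are missing from the sum too.

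The 5 further genes of the cluster had groups that overlapped in every case. Mndal averaged 7.87 ± 1.85 CPM in knockout liver, against 8.06 ± 0.403 CPM in the wild type (log2 fold change -0.03, SE 0.21, and 0.01 without knockout library 1). AI607873 averaged 5.00 ± 1.17 CPM in knockout liver, against 7.45 ± 1.69 CPM in the wild type (log2 fold change -0.58, SE 0.24, and -0.67 without knockout library 1). Pydc3, which encodes a pyrin-domain protein, averaged 1.03 ± 0.356 CPM in knockout liver, against 1.66 ± 0.168 CPM in the wild type (log2 fold change -0.69, SE 0.33, and -0.73 without knockout library 1). Of the 3 that passed the filter, 0 were called by edgeR or DESeq2, with 1 at an unadjusted p below 0.05, against 0.227%, 1.03% and 13.6% of all genes tested by edgeR, by DESeq2 and at the unadjusted p. Pydc4 held 1 to 6 reads per knockout library, against 3 to 6 per wild-type library, and BC094916 held at most 1 read in any library.

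How far reads of these genes can be told apart was measured on GENCODE M21 transcripts (GRCm38), since the genes arose by duplication. The covered length of genes with a single read gave a read length of 49 bases, so every 49-base window of 1 transcript per gene was looked up in the transcripts of all other genes. Of the 1649 windows of Ifi202b 0 occurred in any other gene, and 0 came within 2 mismatches of another p200 transcript. Aim2 had 1.07% identical windows, none of them near another p200 transcript. For Mnda, 73.3% of windows were identical to another gene, most often Ifi205, and 90.3% came within 2 mismatches of another p200 transcript.

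Shared windows were common in the other members too. They made up 49.9% of the windows of Ifi205, 35.7% of Pyhin1, 30.8% of Ifi204 and 11.4% of Ifi203. Ifi205 and Ifi204 shared most with Mnda, Pyhin1 with BC094916, and Ifi203 with the pseudogene Ifi203-ps. The deposited counts are of uniquely mapped reads, so such windows could add no read, and the levels of Mnda, Ifi205, Pyhin1 and Ifi204 are uncertain for that reason. The level of Ifi203 is uncertain too, since 30.3% of its windows came within 2 mismatches of another p200 transcript. The comparison covers transcripts of the reference strain and not the rest of the genome.

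**Figure D2:**
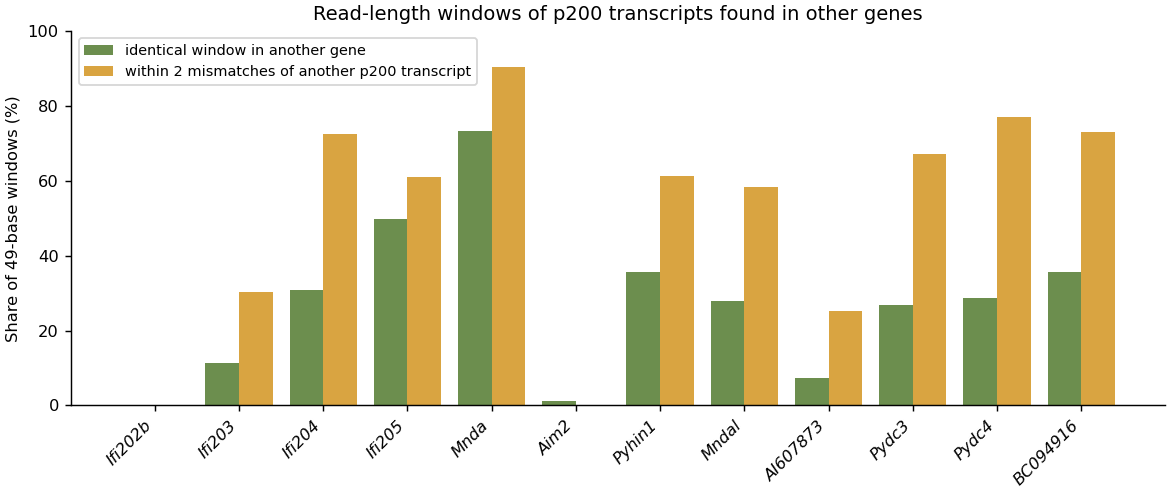
Share of 49-base windows (vertical axis, percent) of each p200 transcript that occur identically in another gene, and share within 2 mismatches of another p200 transcript. Ifi202b is at 0 in both and Mnda reaches 73.3% and 90.3%. The 7 members come first, then the 5 further genes of the cluster.

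The deposited coverage, the percent of a gene's length touched by reads, shows whether reads ran along a gene or piled up on a stretch. Reads of Ifi202b covered 57.0%, 69.4%, 55.0%, 80.5% and 57.6% of the gene in knockout libraries 1 to 5, against 0 in the wild-type libraries, where it had no read. Evenly placed reads of the same number would have covered 63.1%, 95.8%, 61.0%, 96.4% and 71.2%. The ratio of observed to even coverage was thus 0.724 to 0.904 for Ifi202b. Over all genes of 1500 to 2100 bases with 30 to 150 reads, the median of this ratio was 0.887 to 0.907 in knockout libraries. Knockout library 2, at 0.724, lay below the 10th percentile of those genes in that library (0.740) and the other 4 libraries did not.

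Coverage of Ifi204 was 39.2% to 61.9% in the knockout, against 64.2% to 68.3% in wild-type libraries. It did not overlap, although the CPM did. Coverage also depends on read number, and each knockout library held 26 to 116 reads of Ifi204, against 97 to 154 per wild-type library. Evenly placed, these reads would have covered 42.8% to 91.8% of the gene for the knockout. For the wild type the range was 87.6% to 96.4%, so these values overlapped. The share of all genes without overlap in coverage was not counted, so nothing is read from the Ifi204 coverage. Coverage of Ifi203 was 64.4%, 68.2%, 76.7%, 77.7% and 75.1% in knockout libraries 1 to 5, against 77.7% to 78.0% in wild-type libraries. The groups overlapped only through knockout library 4. Knockout library 1 held 99 reads of Ifi203 and the other knockout libraries 198 to 255, against 156 to 183 per wild-type library. Nothing is read from the Ifi203 coverage either. Aim2 was covered to 18.6% to 30.2% in the knockout, against 25.7% to 33.5% in wild-type libraries, and these overlapped.

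**Figure D3:**
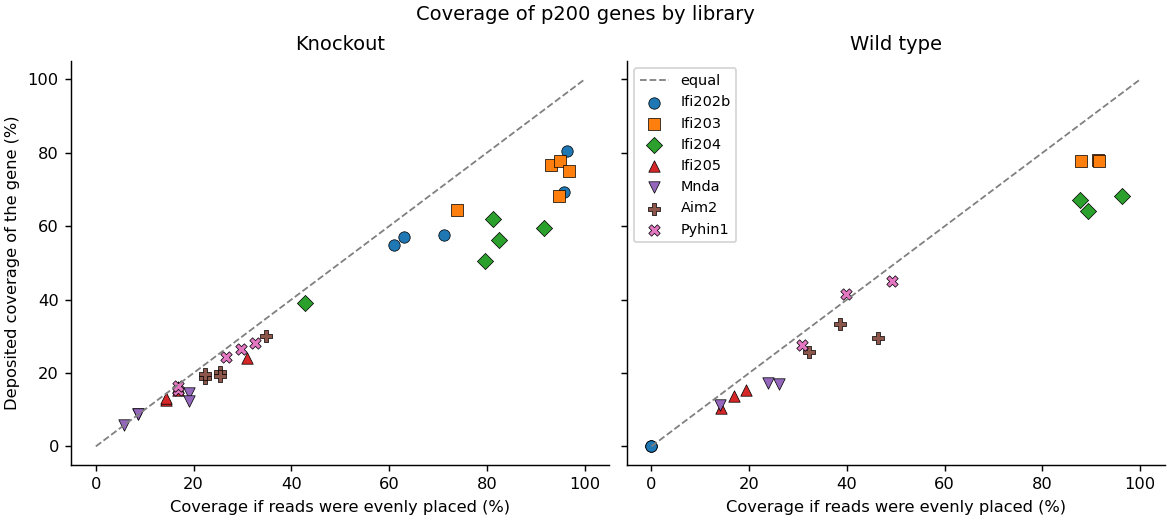
Deposited coverage of each member (vertical axis, percent of gene length) against the coverage its read number would give if reads were evenly placed (horizontal axis, percent), with knockout libraries on the left and wild-type libraries on the right. Each symbol is 1 library of 1 gene and the dashed line marks equality. Ifi202b lies between 55.0% and 80.5% in knockout libraries and at 0 in all wild-type libraries.

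The genes most like Ifi202b across the 8 libraries were found among 12128 genes with a mean of at least 1 CPM, by the root mean square difference of centred log2 CPM. They were chosen for this pattern, so their levels are a description. The closest was 9130409I23Rik, with a difference of 0.78 against a median of 2.56 over all candidates. It also lies on chromosome 1, with 33 tested genes between it and the p200 cluster. Its level was 88.0, 149.4, 45.9, 124.4 and 72.0 CPM in knockout libraries 1 to 5, against 8.50, 5.34 and 8.41 CPM in wild-type libraries 1 to 3. In CPM both genes were highest in knockout libraries 2 and 4 and, among knockout libraries, lowest in library 3. Their full order of knockout libraries by CPM was the same, an order held by 81 of the 12128 candidates (0.668%). The gene was chosen by its profile over these same libraries, which favours a shared order, so nothing is read from that share. Ifi202b was also nearly level in knockout libraries 2 and 4, at 12.8 and 12.7 CPM. By reads, the orders of these 2 genes differed. The ratio of 9130409I23Rik to Ifi202b ran from 9.79 to 14.3 over the knockout libraries.

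**Figure D4:**
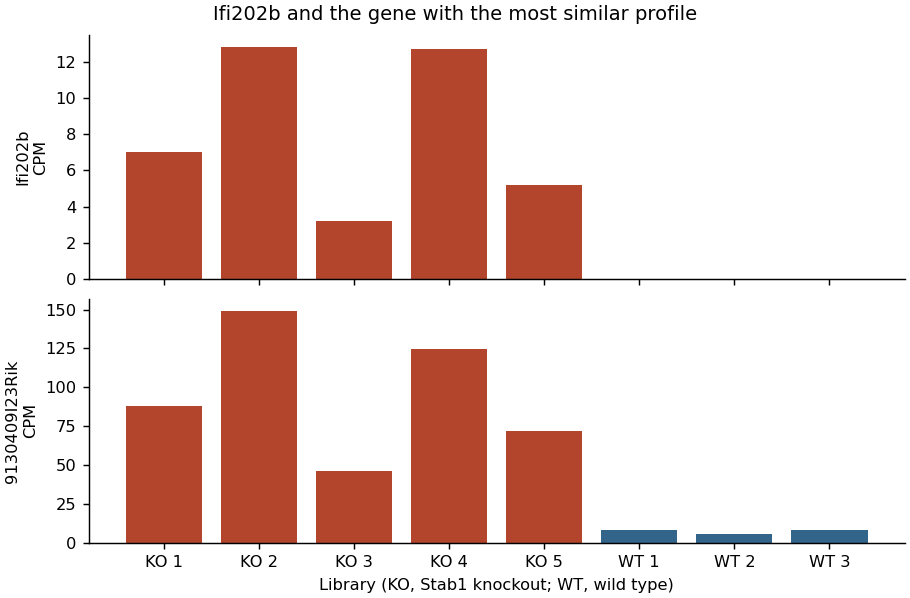
Level in CPM (vertical axes, from 0) of Ifi202b (top) and of 9130409I23Rik (bottom) in knockout libraries 1 to 5 (KO) and wild-type libraries 1 to 3 (WT), with each bar 1 library. Both are highest in knockout libraries 2 and 4 and lowest, among knockout libraries, in library 3. Ifi202b has no bar in wild-type libraries, and 9130409I23Rik is at 5.34 to 8.50 CPM there.

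Next came Fmn2, which encodes the actin nucleator formin-2 and is the first tested gene after the cluster on chromosome 1, with a difference of 1.47. Its level was 4.03 ± 4.35 CPM in knockout (SD, n = 5) and 0.290 ± 0.172 CPM in wild-type liver (SD, n = 3), with 11.7 CPM in knockout library 1 and 1.39 to 2.75 CPM in the other knockout libraries. Nuggc on chromosome 14, Gm9855 on chromosome 10 and the eosinophil chemokine receptor gene Ccr3 on chromosome 9 followed, at differences of 1.58 to 1.66. Ccr3 averaged 2.21 ± 0.828 CPM in knockout liver, against 0.319 ± 0.145 CPM in the wild type.

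The 12 nearest tested genes on each side of the cluster were compared next. Of these 24 genes, 0 were called by edgeR, where 0.227% of all tested genes were, 7 had an unadjusted p below 0.05, against 13.6% of all, and DESeq2 called 2, Apcs and Fmn2, against 1.03% of all. Their median log2 fold change was -0.01, as over all tested genes (-0.01). Knockout libraries all lay above the wild-type ones for 2 of them and all below for 2, where 3.04% and 3.61% of all tested genes did. Apcs, which encodes the pentraxin serum amyloid P component, was at 674.6, 790.4, 494.3, 652.8 and 442.5 CPM in knockout libraries 1 to 5, against 179.9, 196.6 and 327.9 CPM in wild-type libraries 1 to 3 (log2 fold change 1.38, SE 0.26, edgeR adjusted p = 0.11). Cadm3, a cell adhesion gene beside Aim2, averaged 5.50 ± 1.49 CPM in knockout liver, against 9.53 ± 1.66 CPM in the wild type (log2 fold change -0.78, edgeR adjusted p = 0.307). For Fmn2 the log2 fold change was 3.65 (SE 0.92, edgeR adjusted p = 0.264), and 2.81 without knockout library 1. Without knockout library 1, Apcs and Fmn2 were called higher in the knockout, with edgeR adjusted p-values of 0.0471 and 0.0329, where 0.928% of all tested genes were called. The log2 fold change of Apcs was 1.34 in that fit. Apcs was also called higher without wild-type library 3 (edgeR adjusted p = 0.0238).

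**Figure D5:**
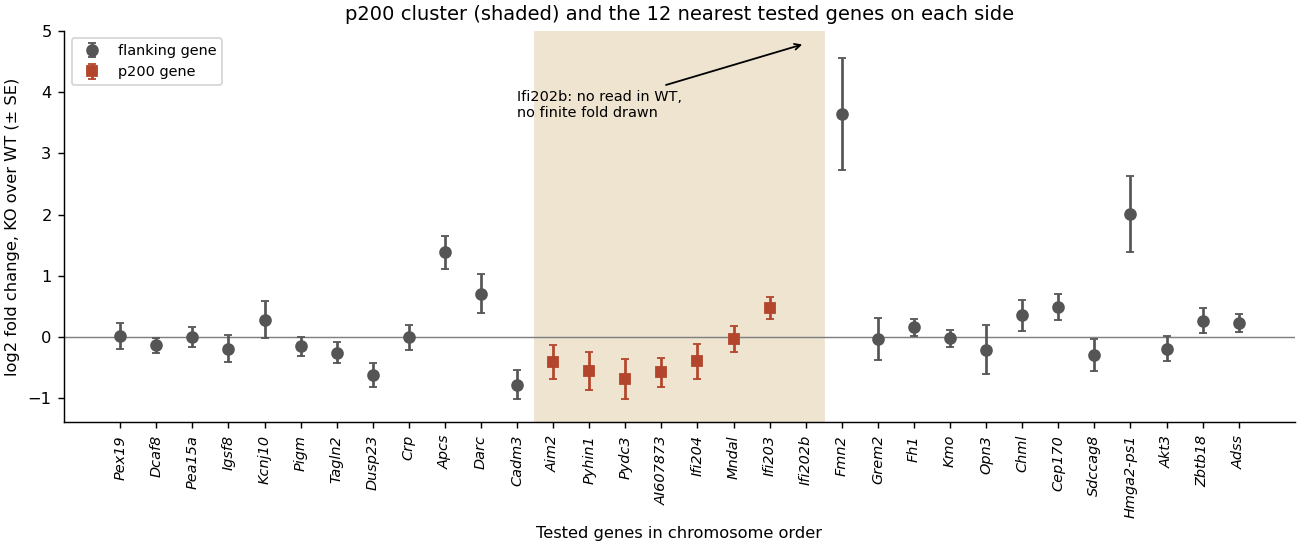
Log2 fold change, knockout over wild type (vertical axis, with SE bars), of tested p200 genes (squares, shaded) and of the 12 nearest tested genes on each side (circles), in chromosome order. Ifi202b had no wild-type read and gets no point. Flanking genes range from -0.78 for Cadm3 to 3.65 for Fmn2.

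Genes that act with or above the family, or in related pathways, were read from lists. Among interferon signalling genes, 0 of 15 tested members were called by edgeR, against 0.227% of all tested genes. At an unadjusted p below 0.05 the count was 3, against 13.6% of all. Their median log2 fold change was -0.09, and -0.14 without knockout library 1. Knockout libraries all lay above the wild-type ones for 0 of them and all below for 1, where 3.04% and 3.61% of all tested genes did. Stat2, a subunit of the interferon-activated transcription factor, was at 61.6 ± 6.39 CPM in knockout (SD, n = 5) and 80.2 ± 10.03 CPM in wild-type liver (SD, n = 3), with groups that did not overlap (log2 fold change -0.38, SE 0.14, edgeR adjusted p = 0.333). Irf9, its DNA-binding partner, averaged 33.6 ± 3.73 CPM in knockout liver, against 41.5 ± 3.45 CPM in the wild type (edgeR adjusted p = 0.356), and Irf1, another interferon regulatory factor, averaged 37.1 ± 8.44 CPM in knockout liver, against 50.4 ± 6.55 CPM in the wild type (edgeR adjusted p = 0.359).

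For interferon-stimulated genes outside the family, 0 of 44 tested members were called by edgeR, against 0.227% of all tested genes. At an unadjusted p below 0.05 the count was 7, against 13.6% of all tested genes. DESeq2 called 2, both higher, against 1.03% of the genes it tested. These were Ifi27l2a (log2 fold change 1.85, DESeq2 adjusted p = 0.0338) and Psmb9 (DESeq2 adjusted p = 0.0436), named here after their values were seen. The median log2 fold change was 0.03, with 23 positive and 21 negative, against -0.01 over all tested genes, and the list's median was -0.02 without knockout library 1. Psmb9, an immunoproteasome subunit, averaged 27.3 ± 6.40 CPM in knockout liver, against 15.7 ± 1.11 CPM in the wild type, with groups that did not overlap (log2 fold change 0.80, SE 0.20, edgeR adjusted p = 0.264). Ifi35 averaged 50.04 ± 13.7 CPM in knockout liver, against 28.8 ± 5.29 CPM in the wild type (log2 fold change 0.80, edgeR adjusted p = 0.301), again without overlap. Over the 44 genes, knockout libraries all lay above the wild-type ones for 3 and all below for 1. Of all tested genes, 3.04% and 3.61% did. Ifi27 averaged 122.7 ± 27.1 CPM in knockout liver, against 65.5 ± 24.9 CPM in the wild type and overlapped (edgeR adjusted p = 0.301).

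Inflammasome genes, a list not limited to those that act with AIM2, had 13 positive and 2 negative log2 fold changes. Their median was 0.23, against -0.01 over all tested genes. The share of positive values over all genes was not counted, so nothing is read from the signs. By edgeR and by DESeq2 0 of the 15 tested were called, against 0.227% and 1.03% of all genes they tested. At an unadjusted p below 0.05 the count was 2, against 13.6% of all tested genes. Casp4, an inflammatory caspase, averaged 2.95 ± 0.720 CPM in knockout liver, against 1.58 ± 0.804 CPM in the wild type (log2 fold change 0.91, SE 0.35, edgeR adjusted p = 0.338). Il18, a cytokine matured by caspase-1, averaged 15.4 ± 2.68 CPM in knockout liver, against 10.9 ± 2.14 CPM in the wild type (log2 fold change 0.50, edgeR adjusted p = 0.34). P2rx7 averaged 1.76 ± 0.461 CPM in knockout liver, against 2.44 ± 0.392 CPM in the wild type (edgeR adjusted p = 0.427). The median of the list was 0.10 without knockout library 1.

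Among genes of cytosolic DNA sensing, 0 of 15 tested were called by edgeR or DESeq2, against 0.227% and 1.03% of all genes they tested. At an unadjusted p below 0.05 the count was 1, against 13.6% of all tested genes. Their median log2 fold change was -0.11, and -0.14 without knockout library 1. Irf7, an interferon regulator, averaged 74.2 ± 15.0 CPM in knockout liver, against 51.7 ± 16.5 CPM in the wild type (log2 fold change 0.52, SE 0.23, edgeR adjusted p = 0.358). Dnase2a and Polr3a, with adjusted p-values of 0.385 and 0.396 by edgeR, were the next in order of p. Of 16 tested genes for partners of p200 proteins, such as regulators of the cell cycle, 0 were called by edgeR or DESeq2, against the same shares. At an unadjusted p below 0.05 the count was 1, against 13.6% of all tested genes. Cdkn1a, a cell cycle inhibitor, averaged 3.35 ± 1.89 CPM in knockout liver, against 7.76 ± 4.87 CPM in the wild type (log2 fold change -1.27, edgeR adjusted p = 0.333), with a log2 fold change of -1.62 without knockout library 1. Myc was at 4.03 ± 2.95 CPM in knockout liver, against 13.5 ± 19.0 CPM in the wild type, where library 3 alone held 35.5 CPM, and Rb1, the retinoblastoma gene, averaged 13.9 ± 3.62 CPM in knockout liver, against 10.3 ± 0.967 CPM in the wild type (edgeR adjusted p = 0.367 for Myc and 0.385 for Rb1).

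Immune cells that express p200 genes were followed through marker lists. Summed levels of 11 Kupffer cell markers were 599.5 to 866.5 CPM in knockout and 506.0 to 680.7 CPM in wild-type libraries. The sum over 9 monocyte markers was 74.1 to 96.1 CPM across knockout libraries, against 62.1 to 74.1 CPM across wild-type libraries, and that over 7 neutrophil markers was 10.1 to 18.8 CPM in knockout against 7.28 to 13.4 CPM in wild type. Markers of T and NK cells (11 genes) summed to 5.91 to 10.7 CPM in knockout against 6.54 to 7.51 CPM in wild type, those of B cells (7 genes) to 7.13 to 13.0 CPM in knockout against 9.68 to 11.99 CPM in wild type, and those of dendritic cells (8 genes) to 186.9 to 230.2 CPM in knockout against 167.5 to 213.4 CPM in wild type. The groups overlapped for all 6 immune lists. The 8 markers of sinusoidal endothelium did not overlap, at 208.1 to 258.2 CPM in knockout and 273.4 to 346.7 CPM in wild-type libraries. All markers of these lists had reads. Only 2 of the 8 dendritic cell markers and 2 of the 11 T and NK cell markers passed the filter on low counts. The dendritic cell list also holds Bst2, an entry of the interferon-stimulated list, so its sum is no measure of dendritic cells alone. Of the tested markers 0 were called by edgeR, against 0.227% of all tested genes. Hepatocyte and endothelial sums thus did not overlap between groups, where 6.65% of all tested genes did not either. The median log2 fold change was -0.02 over the 8 hepatocyte markers and -0.23 over the 8 endothelial ones. How often sums of 8 genes fail to overlap was not counted, so nothing is read from these sums. The part of the listed cell types in the levels of Ifi202b and Ifi203 was not tested.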

How the data were processed

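Liver mRNA was sequenced in 5 Stab1 knockout and 3 wild-type libraries. RNA was column-purified and libraries were made at BGI, per the labels' protocols. Aligner, genome build, annotation and strandedness were not given in the sources used here. A deposited table has 19464 rows and gives, per the file headers, a count of uniquely mapped reads, the percent of gene length covered and an RPKM for each library. The deposited RPKM equalled the value recomputed from reads, length and total within 0.1%, and the deposited percent covered was used as it stands. A dash was read as 0. Reads were summed over rows sharing an identifier, none of them a p200 row.

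Counts were fitted in R 4.3.3 with edgeR 4.0.16 (filterByExpr, TMM scaling, quasi-likelihood F test, Benjamini-Hochberg adjustment over 12338 genes, call at an adjusted p below 0.05). SE is the log2 fold change over the square root of F. DESeq2 1.42.0 was an alternative, besides leaving out libraries, a replicate block, other scalings and other filters. On simulated counts for this comparison over 12312 genes, 54 of 100 genes changed 2-fold and 96 of 97 changed 4-fold were called. So were 8 of 12115 unchanged genes. In the deposited counts, Fmn2 at a log2 fold change of 3.65 was not called (edgeR adjusted p = 0.264). Nuggc at 2.87 was not called either (edgeR adjusted p = 0.249), while 9130409I23Rik at 3.69 was (edgeR adjusted p = 0.0035). How often changes of this size go uncalled in the deposited counts was not tested. Libraries held 4.85 to 10.8 M reads, and no pair of libraries within a group agreed within sampling noise.

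Members and lists were chosen with earlier results of these data known. Named are all p200 rows, from each list and the flanking genes those called or else the 3 with the smallest p, and the 5 genes most like Ifi202b or like the sum of the other members. Of 217 list entries 199 were found in the table. Gene order and promoters came from RefSeq GRCm38.p6, which held 99.7% of identifiers.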

Additional observations from a re-analysis of the deposited data

How the results depend on the processing

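The count of members called higher was 1, where 0.0729% of all tested genes were, and nothing is read from it. It was 0 to 1 with any single library left out, since Ifi202b lost its call without knockout library 2 and without either library 1 or 2 of the wild type. It was 0 with the replicate block and 1 under the other scalings, filters and DESeq2. Over all genes, 9 were called higher and 19 lower, against 66 and 68 by DESeq2, and 0 and 8 with the replicate block. With any single library left out the counts were 1 to 51 higher and 12 to 70 lower, the most higher calls without knockout library 1 and the most lower calls without wild-type library 3. Of the context lists 0 genes were called, and 2 by DESeq2, against 0.227% and 1.03% of all genes tested. Flanking genes called numbered 0, with 0 to 2 when a library was left out and 2 by DESeq2, against the same shares for edgeR on all libraries and for DESeq2. Correlations of same-numbered deviations were 0.12, -0.15 and -0.15, and knockout library 1 correlated best with wild-type library 2. Deviations of 3 wild-type libraries from their own mean are not independent, so these values cannot decide whether the shared replicate numbers pair the libraries.

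Fitted log2 fold changes of the members moved by less than the spread between libraries in every alternative that gave a value, from 0.32 to 0.55 for Ifi203, -0.71 to -0.12 for Ifi204, -0.59 to -0.19 for Aim2 and -0.79 to -0.28 for Pyhin1. Mndal ran from -0.24 to 0.08 and so changed sign. With rows kept apart nothing changed, as no p200 identifier stands on several rows. Summing all 12 p200 rows gave a log2 ratio of summed CPM of 0.17, against 0.36 for the 7 members. The cause of these shifts was not tested. Depth limits Mnda, Ifi205, Pydc4 and BC094916, which hold at most 12 reads in any library.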

Other observations

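The summed level of the 6 members other than Ifi202b was most like that of Sos2 over the 8 libraries, with a root mean square difference of 0.08 on the log2 scale, followed by Pbld2, Apoc2, Pnpla8 and Ddx26b at 0.09 to 0.11, where the median over 12128 candidates was 0.37. Sos2 averaged 17.3 ± 3.302 CPM in knockout (SD, n = 5) and 15.8 ± 3.46 CPM in wild-type liver (SD, n = 3). Among the knockout libraries, library 5 had the highest level of Ifi203, Ifi204 and Pyhin1, at 29.4, 13.4 and 3.23 CPM, while its Ifi202b level of 5.19 CPM was among the 3 lower ones. The library with the highest Ifi204, Aim2 and Pyhin1 in wild-type liver was library 3, at 15.4, 3.21 and 4.81 CPM.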
